A study of Mus musculus with 38 samples.

Results

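The comparison described here set the colonic epithelium of wild-type mice after 3 days of dextran sodium sulfate (DSS) against that of untreated wild-type mice. Its members were chosen by title alone: the 4 libraries labelled day 0 and wild type and the 7 labelled day 3 and wild type, 11 of the 38 libraries of the series. Each library is named by its title (day, genotype, animal number, as in d3_WT_381) and is RNA from isolated intestinal epithelial cells of 1 numbered C57BL/6 animal. The wild-type animals are Hk2 flox/flox littermates: they carry the floxed hexokinase 2 allele but no Cre. The knockout (KO) animals of the same series carry Villin-Cre as well, which deletes Hk2 in the epithelium, and served only as a second set of day 0 and day 3 animals. The treated animals were males of 10 to 12 weeks that drank 1.5% DSS in tap water. Untreated mice of the study were 9 to 11 or 86 to 92 weeks old, and the labels do not say which age the day 0 libraries had. The series text speaks of colon tissue and the sample labels of isolated epithelial cells.

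DSS is a sulfated polysaccharide that damages the colonic epithelium and lets bacteria of the lumen reach the tissue, which then becomes inflamed over several days. The colonic epithelium renews itself from crypt stem cells. It consists of absorptive colonocytes, which take up water, salt and short-chain fatty acids, mucus-secreting goblet cells, hormone-secreting enteroendocrine cells and chemosensory tuft cells. Day 3 falls early in this course, so the question that the comparison addresses is what the epithelium expresses near the start of injury.

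Day 0 and day 3 also differ in library series, and this runs through every result. The names of the deposited libraries place all day 0 samples in one series and all day 3 samples in another, so that treatment and series cannot be told apart. Histone genes took 0.272 to 0.329% of all counts at day 0 and 0.0205 to 0.0541% at day 3, and small RNA genes 2.04 to 3.97% and 0.0372 to 0.0686%. For both classes the exact permutation test of the difference in means (two-sided) gave p = 0.00303, the smallest value that the 330 splits of 4 and 7 libraries can give. Mitochondrial transcripts took 9.75 to 18.8% at day 0 and 6.25 to 16.95% in 6 day 3 libraries, but 41.7% in d3_WT_381 (exact permutation p = 0.782 for the group means). These 3 gene classes, 6198 of 46078 genes, were removed before anything else was read. The libraries held 12.7 to 44.9 M counts at day 0 and 26.7 to 50.1 M at day 3. Levels are in CPM, counts per 1 M counts of the kept genes, and 3 counts corresponded to 0.0651 to 0.283 CPM.

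Of 16821 genes tested, 7668 were called at an adjusted p under 0.05 (edgeR's quasi-likelihood test with Benjamini-Hochberg adjustment), which is 45.6% of them. Of these, 3537 (21%) were higher and 4131 (24.6%) lower at day 3. The 11 libraries did not overlap between the groups for 5087 genes (30.2%). Among 547 genes of the annotation's unproven class (TEC) 88.1% were lower, as were 92.3% of 91 sense-intronic and 66.5% of 705 antisense genes, whereas of 13823 protein-coding genes 41.8% were called, 17.7% lower and 24.2% higher. The change of protein-coding genes also followed the exon length of the gene: the median log2 fold change was 0.45 for 483 genes of up to 1 kb, 0.21 for 4732 genes of 2 to 4 kb and -0.33 for 1823 genes over 8 kb. In KO animals the same medians were 0.15, 0.11 and -0.18, and between day 3 and day 7, which lie in 1 library series, they were 0.08, 0.01 and -0.05. For this reason each list of WT day 3 against day 0 below is also given from a second fit over protein-coding genes. In it the length trend of each library was removed, and it was added after seeing the data. That fit called 4998 of 13796 genes (36.2%), 2428 (17.6%) higher and 2570 (18.6%) lower. A count near these shares is no result about a list.

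**Figure D1:**
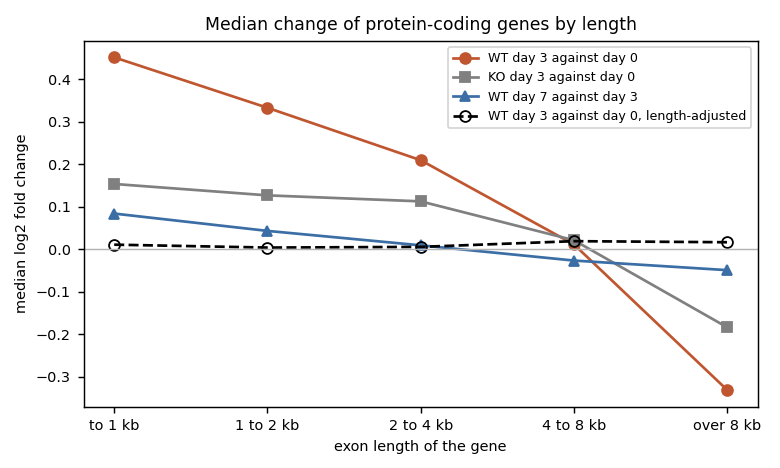
Median log2 fold change (y axis) of protein-coding genes by exon length (x axis) in WT day 3 against day 0, KO day 3 against day 0 and WT day 7 against day 3, with the length-adjusted WT fit dashed. The WT line falls from 0.45 to -0.33, the line within 1 library series stays between 0.08 and -0.05, and the adjusted line lies near 0.

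The libraries were epithelial in both groups. The 12 epithelial markers together (such as Epcam, keratins and villin) made up 19381 to 23719 CPM at day 0 and 20105 to 34207 CPM at day 3, with none at 0. Markers of T cells and intraepithelial lymphocytes summed to 33.7 to 66.0 CPM at day 0 and 19.8 to 150.4 CPM at day 3. Neutrophil markers, 14 genes, summed to 26.99 to 47.7 and 12.3 to 59.1 CPM. Stromal markers summed to 35.6 to 50.1 and 23.3 to 150.8 CPM, erythroid markers to 24.7 to 130.3 and 5.63 to 36.7 CPM, and macrophage and dendritic cell markers to 44.8 to 57.0 and 50.7 to 60.2 CPM. Xist, the RNA of the inactive X chromosome of females, stood at 531.3 CPM in d0_WT_31, at 0.755 to 1.74 CPM in the other day 0 libraries and at 0 to 0.0785 CPM at day 3. Without this library and d3_WT_381, which had the high mitochondrial share, 9437 of 17600 genes (53.6%) were called.

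The anatomical position of the samples was read from genes that pattern the gut. Hoxb13, a homeobox gene of the hindmost body segment, was present in every library, at 236, 224, 279 and 232 CPM at day 0 and 96.2 to 391.7 (median 238) CPM at day 3, and was not called (edgeR adjusted p = 0.91). Sucrase-isomaltase (Sis), the disaccharidase of the small intestine, stayed below 8 CPM throughout. It is 1 of 39 listed genes of small intestine enterocytes, which summed to 1823 to 2666 CPM at day 0 and 1432 to 3121 CPM at day 3. Of 36 tested, 4 rose and 8 fell (length-adjusted, 2 and 12). These are 11.1% and 22.2%, against 21% and 24.6% of all genes and 24.2% and 17.7% of protein-coding genes. The groups differed in other patterning genes. Hoxd13, the last gene of the HoxD cluster, stood at 0.682, 0.481, 4.53 and 1.95 CPM at day 0 and at 19.7 to 75.3 CPM in 6 of the day 3 libraries, with 1.61 CPM in d3_WT_348 (log2 fold change 4.51 ± 0.88 SE, edgeR adjusted p = 0.001; 5.12 without d0_WT_43). Its neighbour Hoxd11 gave 0 counts in 3 of 4 day 0 libraries and 0.0790 CPM in the last, against 0.130 CPM in d3_WT_348 and 1.39 to 7.76 CPM in the other 6 at day 3 (edgeR adjusted p = 0.00051). Hoxd10 and Hoxd12 gave 0 counts in d3_WT_348 and 0.968 to 5.30 CPM in the other 6. Of 39 listed Hox genes 28 were tested. Of these, 11 rose and 2 fell (length-adjusted, 10 and 3), 39.3% and 7.14%, against 21% and 24.6% of all genes. Hoxd9, Hoxd10, Hoxd11 and Hoxd12, all called higher, had at most 2, 8, 3 and 1 counts in any day 0 library. Genes this low at day 0 entered the test through day 3 and could only be called higher. The count is therefore no result about the list.

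St3gal5, the sialyltransferase that makes the ganglioside GM3, followed another order of animals. It stood at 0.379, 0.180, 0 and 0.368 CPM at day 0, at 5.75 to 18.8 CPM in 6 day 3 libraries and at 1.12 CPM in d3_WT_486 (log2 fold change 5.37 ± 0.79 SE, edgeR adjusted p = 9.9e-05). The zinc finger gene Osr2 rose in every animal, from 1.59, 9.14, 4.81 and 9.71 CPM to 34.0 to 97.3 (median 57.8) CPM (log2 fold change 3.19 ± 0.41 SE, edgeR adjusted p = 3e-05), and so did Hoxb8, from 0.985, 2.17, 3.78 and 2.82 CPM to 11.7 to 23.8 (median 20.9) CPM (log2 fold change 3.01 ± 0.29 SE, edgeR adjusted p = 2.4e-06). Whether the groups were sampled at the same level of the colon was not tested, and each epithelial result below stands beside these values.

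**Figure D2:**
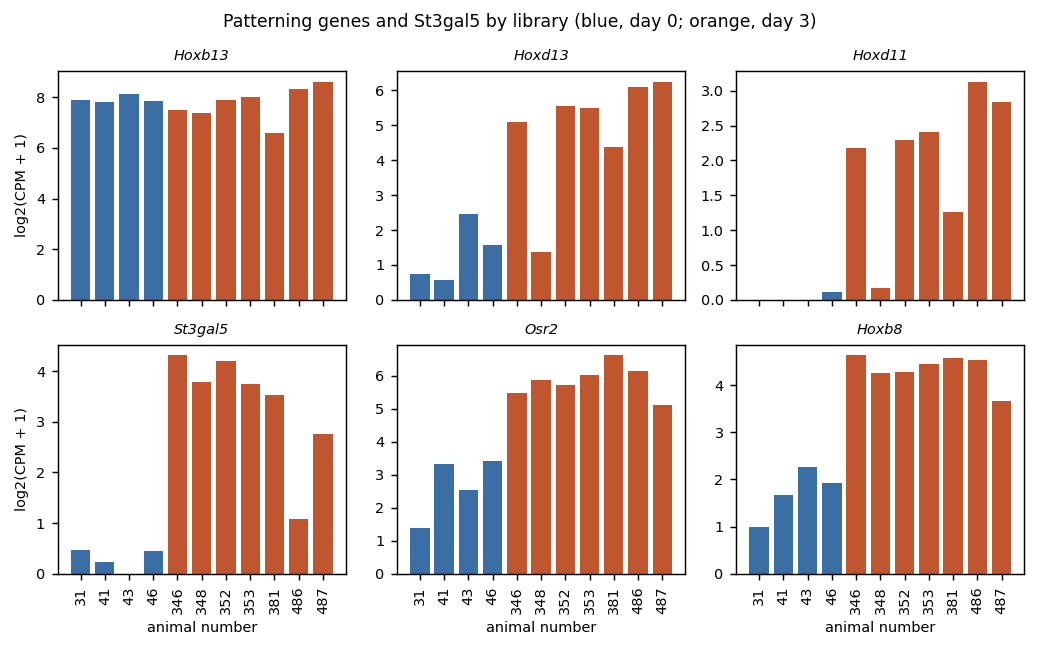
Level of Hoxb13, Hoxd13, Hoxd11, St3gal5, Osr2 and Hoxb8 in each library as log2(CPM + 1) (y axis), with animals on the x axis; day 0 blue, day 3 orange. Hoxb13 is high in all 11 libraries, d3_WT_348 lacks the rise of Hoxd13 and Hoxd11, and d3_WT_486 has the lowest day 3 level of St3gal5.

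Genes that cells switch on within minutes of a stimulus rose without exception among those called. Of 36 heat shock and immediate-early genes, 21 rose and none fell, with a median log2 fold change of 0.86 against 0.04 over all genes (length-adjusted, 14 rose and none fell, median 0.66). Immediate-early genes respond to growth factor signalling, and both they and heat shock genes can also rise while tissue is dissociated. Egr1, a zinc finger transcription factor of this class, stood at 179, 236, 241 and 344.7 CPM at day 0 and at 746 to 2140.0 (median 1464) CPM at day 3 (log2 fold change 2.57 ± 0.29 SE, edgeR adjusted p = 9.1e-06). Zfp36, which encodes a protein that destabilises cytokine mRNAs, went from 269, 240.2, 236 and 336 CPM to 663 to 1828 (median 1169) CPM (log2 fold change 2.18 ± 0.25 SE, edgeR adjusted p = 8.9e-06). In both genes the groups were far apart, and the lowest day 3 library was d3_WT_381. Ier2 rose from 346.2, 233, 322 and 305 CPM to 532 to 1057 (median 801) CPM (log2 fold change 1.41 ± 0.19 SE, edgeR adjusted p = 4.2e-05), and the phosphatase gene Dusp1, which ends MAP kinase signals, from 176, 162, 153 and 219 CPM to 299 to 687 (median 474) CPM (log2 fold change 1.45 ± 0.22 SE, edgeR adjusted p = 0.00015). Fos was already among the more abundant of these genes at day 0, at 1982, 1447, 1508 and 1737 CPM, and reached 1992 to 4194 (median 3071) CPM (log2 fold change 0.90 ± 0.20 SE, edgeR adjusted p = 0.0022). Nr4a1 spread widely at day 3, 217 to 858 (median 333) CPM, but still lay above its 136, 119, 154 and 179 CPM at day 0 (log2 fold change 1.66 ± 0.38 SE, edgeR adjusted p = 0.0029). Among the heat shock genes, the co-chaperone gene Bag3 rose from 38.1, 38.5, 43.6 and 39.8 CPM to 71.0 to 147 (median 85.1) CPM (log2 fold change 1.19 ± 0.18 SE, edgeR adjusted p = 0.00011). The inducible chaperone gene Hspa1a was called too, but its groups overlapped, from 11.4, 7.76, 46.3 and 7.79 CPM to 7.10 to 203 (median 61.9) CPM (edgeR adjusted p = 0.045). It lost the call when d3_WT_346, d3_WT_348, d3_WT_353 or d3_WT_381 or d0_WT_31, d0_WT_41 or d0_WT_46 was left out and in the length-adjusted fit, and 66.3% of its 50-base stretches also occur in transcripts of other genes.

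Because these genes moved together, the bases before their starts were searched for letters of known response elements (RefSeq promoters, GRCm38.p6, 250 bases before the start, both strands). A CArG box, which serum response factor binds, was found for 2 of 28 listed genes tested with a promoter (7.14%), Egr2 and Zfp36. It was found for 1.44% of the 11266 genes tested with a promoter and for 1.62% of all 27025 genes. The cAMP response element TGACGTCA was found for Btg2 and Dusp1, also 2 of 28, for 2.96% of the genes tested and for 1.77% of all genes. Windows around the matches in Zfp36 and Dusp1 are shown because both genes rose in every animal, with the matched letters in capitals. Letters in a promoter are a description, not a binding site. The window of Zfp36 lies on the minus strand at chr7:28379237-28379326 and that of Dusp1 on the minus strand at chr17:26508568-26508655 (GRCm38.p6).
Zfp36, CArG box: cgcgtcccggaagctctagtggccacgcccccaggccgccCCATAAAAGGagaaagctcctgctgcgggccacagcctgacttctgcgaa
Dusp1, cAMP response element: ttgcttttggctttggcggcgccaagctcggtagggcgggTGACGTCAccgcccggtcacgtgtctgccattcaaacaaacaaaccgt

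Cytokine, chemokine and receptor genes were higher at day 3 more often than lower, and the raised ligands ranged from scarce to abundant. Of 33 cytokine, chemokine and receptor genes tested, 16 rose and 1 fell (median 0.90). In the length-adjusted fit 8 rose and 2 fell. Without d0_WT_43 or d0_WT_46, 10 or 9 genes rose. Il1rn, which encodes the antagonist of the interleukin-1 receptor, was the clearest: 38.9, 33.0, 49.3 and 56.5 CPM at day 0 and 85.9 to 249 (median 111) CPM at day 3, without overlap (log2 fold change 1.57 ± 0.28 SE, edgeR adjusted p = 0.00047). The receptor gene Il1r1 rose from 21.97, 18.4, 20.6 and 24.2 CPM to 27.9 to 44.5 (median 34.4) CPM (log2 fold change 0.72 ± 0.13 SE, edgeR adjusted p = 0.00056). The alarmin gene Il33 stayed low, at 0.682, 0.541, 1.13 and 0.553 CPM and 0.968 to 3.51 (median 1.97) CPM, with overlapping groups (log2 fold change 1.496 ± 0.38 SE, edgeR adjusted p = 0.0064). Cxcl10, an interferon-induced chemokine gene, went from 0.530, 1.80, 0.283 and 1.08 CPM to 1.02 to 5.84 (median 3.23) CPM (log2 fold change 1.87 ± 0.51 SE, edgeR adjusted p = 0.0091). Il22ra1, the epithelial subunit of the interleukin-22 receptor, was the member that fell in the whole fit, from 53.5, 51.7, 40.6 and 55.0 CPM to 24.4 to 36.0 (median 26.6) CPM (log2 fold change -0.79 ± 0.12 SE, edgeR adjusted p = 0.00016).

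Some of the raised ligands are typical of lymphocytes. Ccl5 was called higher, with 1.29, 2.10, 1.23 and 1.89 CPM at day 0 and 0.998 to 18.8 (median 6.46) CPM at day 3 (log2 fold change 2.14 ± 0.61 SE, edgeR adjusted p = 0.011; length-adjusted p = 0.052). The T cell receptor component Cd3e went from 0.303, 0.722, 0.0944 and 0.658 CPM to 0.542 to 5.74 (median 2.71) CPM (log2 fold change 2.52 ± 0.59 SE, edgeR adjusted p = 0.0034). Ccl5, Cd3e and the cytotoxic granule gene Gzmb had the same highest library, d3_WT_353, and the same lowest day 3 library, d3_WT_487. Of the 20 lymphocyte markers, 5 rose and none fell, and 12 rose without d3_WT_487. The count was 3 without d0_WT_31, d0_WT_43 or d0_WT_46. In the length-adjusted fit 3 of 16 rose and none fell. The share that rose in the whole fit was near those over all genes (21%) and over protein-coding genes (24.2%). The count of higher markers is therefore no result about the list. The part of lymphocytes in the cytokine result was not tested.

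The STAT3 branch showed 9 of 25 genes higher and 2 lower (length-adjusted, 6 and 3, and 5 higher without d0_WT_41). Socs3, the feedback inhibitor of STAT3 signalling, stood at 19.5, 16.7, 21.99 and 18.4 CPM at day 0 and 26.6 to 105 (median 43.5) CPM at day 3 (log2 fold change 1.61 ± 0.35 SE, edgeR adjusted p = 0.0023). The atypical NF-kappaB regulator Bcl3 went from 27.96, 20.6, 29.2 and 25.002 CPM to 40.9 to 121 (median 51.8) CPM (log2 fold change 1.23 ± 0.27 SE, edgeR adjusted p = 0.0021). Jak2, a kinase upstream of STAT3, fell from 132, 133, 117 and 149.9 CPM to 80.1 to 97.4 (median 87.5) CPM (log2 fold change -0.57 ± 0.09 SE, edgeR adjusted p = 0.00012).

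Antimicrobial genes did not move as 1 block. Of 27 tested, 10 rose and 1 fell (length-adjusted, 6 and 2). The list also holds S100g, the gene of a calcium-binding protein, which was among those that rose in both fits. Pglyrp1, a bactericidal peptidoglycan recognition protein, was higher in every day 3 library, at 133 to 258 (median 177) CPM against 92.1, 82.7, 77.1 and 72.0 CPM (log2 fold change 1.17 ± 0.16 SE, edgeR adjusted p = 5.6e-05). The C-type lectin gene Reg3g was called, from 75.5, 128, 73.1 and 252 CPM to 103 to 632 (median 409) CPM (log2 fold change 1.46 ± 0.49 SE, edgeR adjusted p = 0.026), but lost the call in the length-adjusted fit and without d0_WT_31, d0_WT_41 or d0_WT_43. Its relative Reg3b was not called: it ranged from 68.7 to 2297 CPM among the day 3 libraries, above the day 0 range of 124.6 to 562.4 CPM in 4 of 7 and below it in 3 (edgeR adjusted p = 0.17). Saa1, an acute phase gene of the epithelium, fell from 455, 512, 302 and 683 CPM to 86.1 to 418 (median 185) CPM (log2 fold change -1.36 ± 0.37 SE, edgeR adjusted p = 0.0087), with 31.5% of its 50-base stretches shared mainly with Saa2. Lcn2, a lipocalin that withholds iron from bacteria, was too low to test, with at most 0.366 CPM at day 3 and 0.455 CPM at day 0. Between day 3 and day 7 Lcn2 rose by 7.67 on the log2 scale (edgeR adjusted p = 0.00014).

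Of 14 genes of redox defence at the epithelial surface 3 rose and 3 fell (length-adjusted, 2 and 3), 21.4% each in the whole fit. These shares are near those over all genes (21% and 24.6%) and over protein-coding genes (24.2% and 17.7%). They are no result about the list. The oxidase genes were among those that fell. Duox2, the dual oxidase that releases hydrogen peroxide into the lumen, fell from 178, 435, 162 and 395 CPM to 86.3 to 193 (median 125) CPM (log2 fold change -1.13 ± 0.27 SE, edgeR adjusted p = 0.004). Duox1 fell as well (log2 fold change -1.97 ± 0.40 SE, edgeR adjusted p = 0.0013), and so did the maturation factor gene Duoxa1 (log2 fold change -1.47 ± 0.38 SE, edgeR adjusted p = 0.007; not called without d0_WT_46). Duoxa1 shares 15.3% of its 50-base stretches with Duoxa2, which overlaps it. Inducible nitric oxide synthase, Nos2, stood at 1.44, 5.41, 1.23 and 4.40 CPM and 1.58 to 8.85 (median 3.32) CPM and was not called (log2 fold change 0.37 ± 0.50 SE, edgeR adjusted p = 0.56). From day 3 to day 7 Duox2 rose by 1.95 and Nos2 by 4.66 on the log2 scale (edgeR adjusted p = 0.00044 and 0.00012). Gpx2, the glutathione peroxidase of the gut epithelium, rose already at day 3, from 247, 233, 275 and 177 CPM to 366.8 to 545 (median 416) CPM (log2 fold change 0.91 ± 0.15 SE, edgeR adjusted p = 0.00023).

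Interferon-stimulated genes were divided. Of 75 tested, 7 rose and 10 fell (length-adjusted, 4 and 12), 9.33% and 13.3% of the list in the whole fit, both below the share over all genes. The count of lower genes was 6 without d0_WT_41, 16 without d3_WT_381 and 23 without d0_WT_31 and d3_WT_381. Rsad2, an antiviral enzyme, fell from 15.8, 35.3, 18.5 and 36.9 CPM to 4.54 to 13.7 (median 11.7) CPM (log2 fold change -1.504 ± 0.34 SE, edgeR adjusted p = 0.0026) and the dynamin-like GTPase gene Mx1 from 9.55, 15.5, 10.3 and 11.9 CPM to 4.05 to 6.998 (median 6.18) CPM (log2 fold change -1.04 ± 0.18 SE, edgeR adjusted p = 0.00041). Isg20, an interferon-induced exonuclease, rose from 13.9, 12.4, 15.01 and 12.03 CPM to 24.1 to 36.5 (median 26.2) CPM (log2 fold change 1.08 ± 0.13 SE, edgeR adjusted p = 1.6e-05). MHC class II genes, which epithelial cells express under interferon gamma, varied by animal. Cd74, the invariant chain, stood at 26.9, 273, 21.99 and 29.9 CPM at day 0, where d0_WT_41 was high, and at 18.1 to 54.1 CPM in 6 day 3 libraries with 174.6 CPM in d3_WT_381. It was not called (edgeR adjusted p = 0.42), and its log2 fold change was -0.78 with d0_WT_41 and 0.97 without it. Without d0_WT_31 and d3_WT_381 it was -1.79 and Cd74 was called lower (edgeR adjusted p = 0.035). Of the 13 class II genes 1 rose and none fell (length-adjusted, 1 and 1), while 2 fell without d3_WT_381 and 3 without d0_WT_31 and d3_WT_381.

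**Figure D3:**
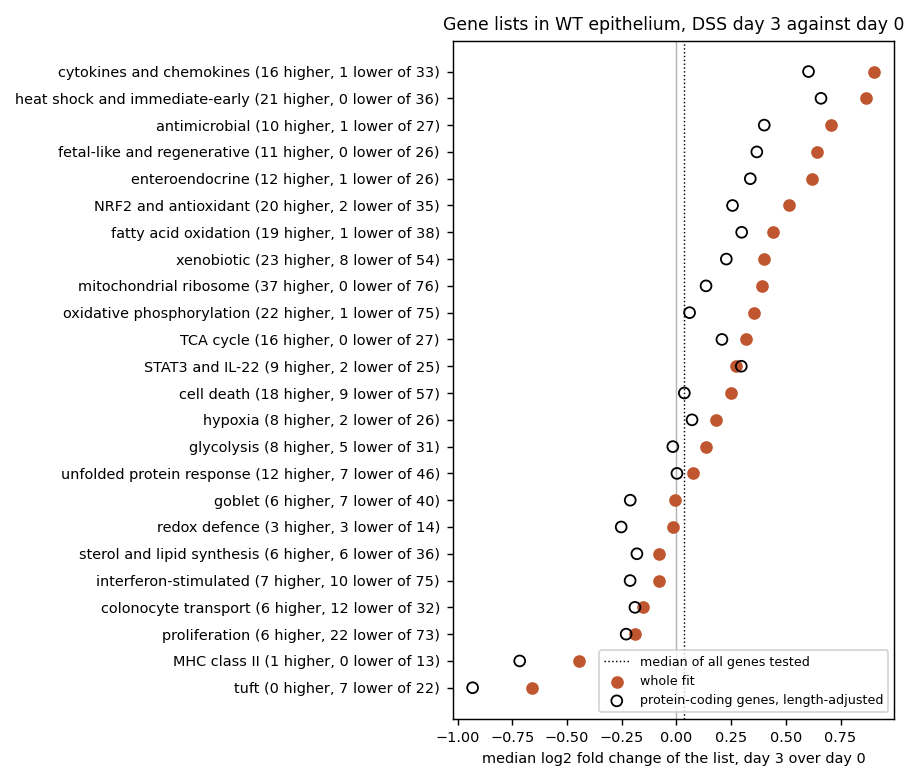
Median log2 fold change (x axis) of 24 gene lists in the whole fit (filled) and in the length-adjusted fit of protein-coding genes (open), with counts of called genes in the labels on the y axis; the dotted line is the median of all genes tested. Cytokine and immediate-early lists lie highest and the tuft list lowest in both fits, while the median for oxidative phosphorylation moves from 0.36 to 0.06.

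Genes associated with fetal-like and regenerating epithelium were higher: 11 of 26 rose and none fell (length-adjusted, 7 and none). The count was 6 or 7 without d0_WT_41 or d0_WT_43. Krt7, a keratin of simple epithelia, stood at 128, 118, 137 and 130.1 CPM at day 0 and 198 to 345.1 (median 249.8) CPM at day 3 (log2 fold change 1.04 ± 0.14 SE, edgeR adjusted p = 4.1e-05). The day 0 libraries lay within a narrow band, and no day 3 library reached down to it. Ly6e rose from 181, 172, 159 and 122 CPM to 231 to 321 (median 261) CPM (log2 fold change 0.79 ± 0.13 SE, edgeR adjusted p = 0.00032). Ereg, a ligand of the epidermal growth factor receptor, went from 1.44, 2.23, 3.02 and 4.13 CPM to 3.81 to 18.8 (median 6.47) CPM (log2 fold change 1.66 ± 0.45 SE, edgeR adjusted p = 0.0091), with 6 of 7 day 3 libraries above the highest day 0 library. Clu, a marker of revival stem cells, went only from 3.56, 1.32, 2.45 and 4.40 CPM to 4.21 to 7.92 (median 5.66) CPM (log2 fold change 0.97 ± 0.29 SE, edgeR adjusted p = 0.014). Plaur and the YAP target Cyr61 were called higher in the whole fit but not in the length-adjusted one (edgeR adjusted p = 0.11 and 0.1). Plaur also lost the call without d0_WT_31, d0_WT_41 or d0_WT_43 (edgeR adjusted p = 0.065, 0.095 and 0.085), and Cyr61 without d0_WT_41 or d0_WT_43 (edgeR adjusted p = 0.059 and 0.067). Plaur reached 91.1 CPM in d3_WT_346, and without that library its log2 fold change was 1.07 instead of 1.68.

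Absorptive transport genes fell in part. Of 32 genes for water, salt and short-chain fatty acid handling, 12 fell and 6 rose (length-adjusted, 12 and 4), 37.5% and 18.8% of the list. Slc9a3, the apical sodium-proton exchanger, had the smallest p of the list: 188, 315, 183 and 225 CPM at day 0 and 55.3 to 91.1 (median 72.9) CPM at day 3, a 3.06-fold lower level (log2 fold change -1.61 ± 0.16 SE, edgeR adjusted p = 2.5e-06). The water channel gene Aqp4 fell from 1807, 1242, 1656 and 1129 CPM to 342 to 845 (median 619) CPM (log2 fold change -1.28 ± 0.20 SE, edgeR adjusted p = 0.00017) and Aqp8, the water channel of surface colonocytes, from 556, 644, 367.3 and 735 CPM to 123 to 439 (median 188) CPM (log2 fold change -1.42 ± 0.29 SE, edgeR adjusted p = 0.0015). Only in d3_WT_381 did Aqp8 reach into the day 0 range. The chloride-bicarbonate exchanger gene Slc26a3 fell from 1259, 1429, 991 and 1212 CPM to 531 to 809 (median 665) CPM (log2 fold change -0.88 ± 0.14 SE, edgeR adjusted p = 0.0002), and the membrane-bound carbonic anhydrase gene Car4 from 609, 866, 442 and 715 CPM to 133 to 386.7 (median 262) CPM (log2 fold change -1.32 ± 0.27 SE, edgeR adjusted p = 0.0014). Nr3c2, the mineralocorticoid receptor, fell from 286, 304, 286 and 352.6 CPM to 133 to 212 (median 174) CPM (log2 fold change -0.86 ± 0.12 SE, edgeR adjusted p = 6.1e-05).

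Other colonocyte genes went the opposite way. The cytosolic carbonic anhydrase gene Car1 rose from 2643, 2635, 2397 and 3612 CPM to 4946 to 12816 (median 6365) CPM, highest in d3_WT_381 (log2 fold change 1.34 ± 0.26 SE, edgeR adjusted p = 0.00096). Hsd11b2, which inactivates glucocorticoids so that aldosterone can act, rose from 213, 196, 193 and 157 CPM to 268 to 425 (median 284) CPM (log2 fold change 0.73 ± 0.14 SE, edgeR adjusted p = 0.00092). The sodium pump subunit gene Atp1b1 rose from 868, 889.6, 906 and 865 CPM to 1059 to 1626 (median 1297) CPM (log2 fold change 0.57 ± 0.12 SE, edgeR adjusted p = 0.0017), with 15.8% of its 50-base stretches shared with the overlapping gene Nme7.

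The principal mucus genes fell while a secretory regulator rose. Muc2, the gel-forming mucin of the colon, was higher in every day 0 library, at 9037, 19840.4, 9536 and 14663 CPM, than in any at day 3, at 3849.7 to 5949 (median 5270.2) CPM (log2 fold change -1.36 ± 0.21 SE, edgeR adjusted p = 0.00015). Fcgbp, a mucus protein that is crosslinked with Muc2, fell from 12573, 11064, 6298 and 7995 CPM to 751 to 4203 (median 3376) CPM and was lowest in d3_WT_381 (log2 fold change -1.68 ± 0.35 SE, edgeR adjusted p = 0.0017). Clca1, a mucus-processing protease, went from 6876, 4088, 2468 and 3193 CPM to 696 to 3294 (median 1652) CPM with overlap (log2 fold change -1.13 ± 0.38 SE, edgeR adjusted p = 0.026) and lost the call without d0_WT_31 or d0_WT_41 (edgeR adjusted p = 0.12 and 0.053). Creb3l1, a transcription factor of secretory cells, rose from 80.9, 99.2, 135 and 111 CPM to 208 to 351.8 (median 326) CPM (log2 fold change 1.54 ± 0.17 SE, edgeR adjusted p = 5.8e-06). Tff3 and Zg16, both abundant goblet cell products, were not called in the whole fit (edgeR adjusted p = 0.4 and 0.1). Both were called lower in the length-adjusted fit, with log2 fold changes of -0.67 and -1.003 (edgeR adjusted p = 0.037 and 0.022), and Zg16 also without d3_WT_487 (-0.80, edgeR adjusted p = 0.024). Of 40 goblet genes, 6 rose and 7 fell (length-adjusted, 2 and 10). The higher count was 3 without d0_WT_41, d0_WT_43 or d0_WT_46 and 11 without d0_WT_31 and d3_WT_381. In the whole fit both shares lay below those over all genes, 21% and 24.6%, and over protein-coding genes, 24.2% and 17.7%. The counts of the whole fit are therefore no result about the list. Over all genes of the length-adjusted fit, 17.6% rose and 18.6% fell.

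Tuft cell genes were lower and enteroendocrine genes higher, and in bulk RNA fewer or more cells of a type cannot be told apart from less or more RNA per cell. Of 22 tuft genes none rose and 7 fell (length-adjusted, none and 11). Dclk1, the microtubule-associated kinase that marks tuft cells, stood within 38.9, 39.5, 39.1 and 38.5 CPM at day 0 and at 2.81 to 19.1 (median 4.87) CPM at day 3 (log2 fold change -2.20 ± 0.45 SE, edgeR adjusted p = 0.0013). The day 3 libraries were unequal: 2.81 to 4.87 CPM in d3_WT_346, d3_WT_348, d3_WT_352 and d3_WT_353, and 12.5 to 19.1 CPM in d3_WT_381, d3_WT_486 and d3_WT_487. Trpm5, the cation channel of chemosensory signalling, showed the same order at the top, with 32.3, 23.9, 24.7 and 30.5 CPM at day 0 and 7.36 to 20.8 (median 11.6) CPM at day 3 (log2 fold change -1.25 ± 0.23 SE, edgeR adjusted p = 0.0007). Avil and Sh2d7 fell as well (log2 fold change -1.17 ± 0.30 SE, edgeR adjusted p = 0.0057 and log2 fold change -1.24 ± 0.36 SE, edgeR adjusted p = 0.013), and the lineage factor Pou2f3 was not called (edgeR adjusted p = 0.059; length-adjusted 0.018). The count of lower tuft genes was 15 without d3_WT_381, 14 without d0_WT_31 and d3_WT_381, and 4 without d0_WT_43.

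Of 26 enteroendocrine genes 12 rose and 1 fell (length-adjusted, 6 and 1). Gcg, which encodes proglucagon, rose from 28.6, 36.5, 23.4 and 28.6 CPM to 54.7 to 101 (median 69.6) CPM (log2 fold change 1.30 ± 0.18 SE, edgeR adjusted p = 4.8e-05). The granule protein genes Chga and Chgb rose together, Chga from 44.3, 79.1, 57.8 and 78.2 CPM to 88.1 to 214 (median 159) CPM (log2 fold change 1.21 ± 0.23 SE, edgeR adjusted p = 0.00087) and Chgb from 88.1, 129.9, 105 and 125 CPM to 182 to 386.04 (median 280.3) CPM (log2 fold change 1.25 ± 0.21 SE, edgeR adjusted p = 0.00033). Nts, the gene of neurotensin, rose from 1.52, 3.91, 1.13 and 4.34 CPM to 5.91 to 25.1 (median 9.22) CPM (log2 fold change 2.14 ± 0.45 SE, edgeR adjusted p = 0.0017). Ghrl, the ghrelin gene, was the member that fell, from 0.909, 1.14, 2.45 and 2.32 CPM to 0.209 to 0.603 (median 0.317) CPM (log2 fold change -2.33 ± 0.35 SE, edgeR adjusted p = 0.00011). Gcg, Chga, Chgb and Nts did not overlap between the days.

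**Figure D4:**
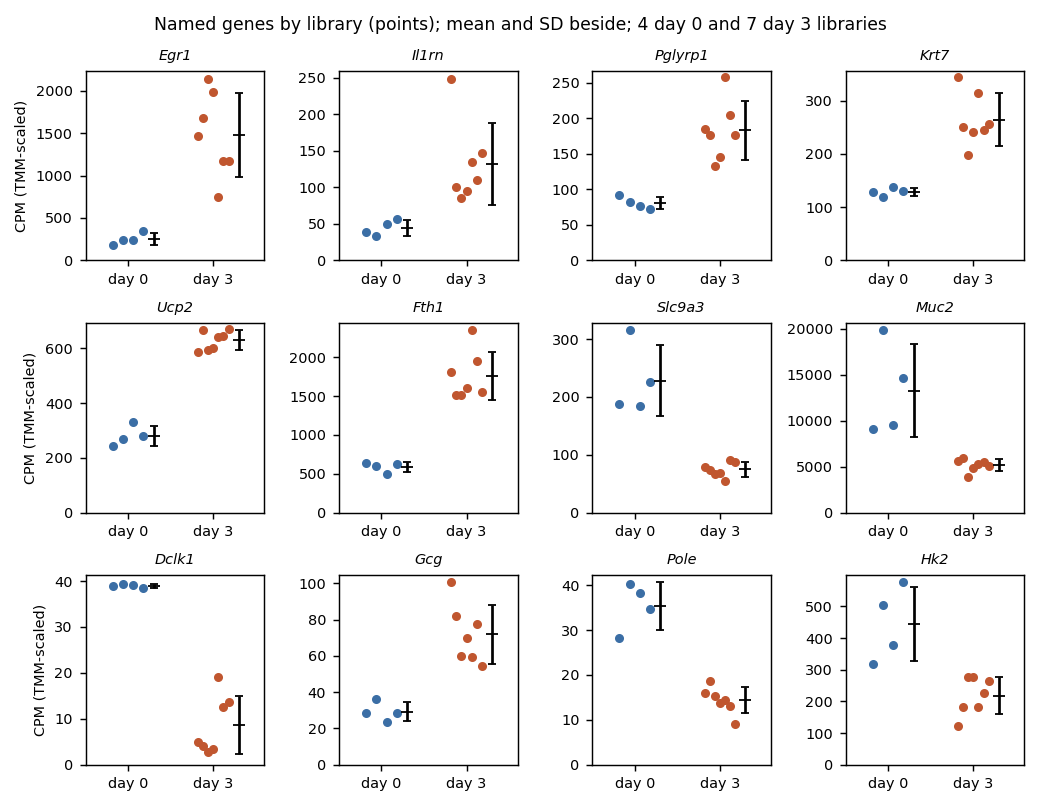
CPM (y axis) of 12 named genes in the 4 day 0 and 7 day 3 libraries (points), with the mean and SD beside each group. Egr1, Il1rn, Pglyrp1, Krt7, Ucp2, Fth1 and Gcg are higher and Slc9a3, Muc2, Dclk1, Pole and Hk2 lower at day 3, in each case without overlap.

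Proliferation genes were lower more often than higher. Of 73 tested, 22 fell and 6 rose (length-adjusted, 25 and 1), 30.1% and 8.22% of the list. The count of lower genes was 14 without d0_WT_43, and that of higher genes 2 or 3 without d0_WT_31, d0_WT_41 or d0_WT_46. Pole, the catalytic subunit of DNA polymerase epsilon, fell from 28.3, 40.4, 38.3 and 34.6 CPM to 9.14 to 18.7 (median 14.5) CPM (log2 fold change -1.30 ± 0.16 SE, edgeR adjusted p = 2.1e-05) and Pola1, that of polymerase alpha, from 33.8, 44.6, 43.1 and 36.9 CPM to 13.4 to 24.3 (median 18.7) CPM (log2 fold change -1.04 ± 0.15 SE, edgeR adjusted p = 8.5e-05). Top2a, the topoisomerase that resolves chromosomes, fell from 217, 316, 281 and 231 CPM to 137 to 175 (median 161) CPM (log2 fold change -0.72 ± 0.11 SE, edgeR adjusted p = 0.00012). Mki67, the proliferation antigen, was called lower (log2 fold change -0.85 ± 0.18 SE, edgeR adjusted p = 0.0017), though d0_WT_31, at 207 CPM, lay inside the day 3 range of 182 to 249 (median 191) CPM. Ube2c, a ubiquitin-conjugating enzyme of mitotic exit, rose from 22.1, 28.2, 29.8 and 21.9 CPM to 33.7 to 64.0 (median 44.5) CPM (log2 fold change 0.82 ± 0.16 SE, edgeR adjusted p = 0.00097).

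Stem cell and Wnt genes gave no result as a list, and single members went both ways. Lgr5, the receptor that marks crypt base stem cells, stood at 9.24, 8.06, 8.78 and 8.05 CPM at day 0 and 2.78 to 12.8 (median 8.91) CPM at day 3 and was not called (edgeR adjusted p = 0.94). Axin2, a feedback gene of Wnt signalling, fell from 52.96, 41.1, 42.8 and 45.1 CPM to 13.6 to 35.5 (median 31.2) CPM (log2 fold change -0.76 ± 0.24 SE, edgeR adjusted p = 0.02) and lost the call without d0_WT_31 (edgeR adjusted p = 0.06). Sox9, a crypt transcription factor, rose from 37.2, 36.4, 57.1 and 52.0 CPM to 82.7 to 131 (median 113) CPM (log2 fold change 1.28 ± 0.16 SE, edgeR adjusted p = 3.1e-05) and Myc from 17.6, 12.99, 14.4 and 16.1 CPM to 21.4 to 57.7 (median 36.1) CPM (log2 fold change 1.29 ± 0.25 SE, edgeR adjusted p = 0.0011). Of 31 genes of this list, 6 rose and 5 fell (length-adjusted, 5 and 5), or 3 fell without d0_WT_31. The shares of 19.4% and 16.1% lay below those over all genes, 21% and 24.6%, and over protein-coding genes, 24.2% and 17.7%.

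Genes of energy metabolism rose more often than they fell, but for respiration the count changed with single libraries and with gene length. Of 75 nuclear genes of oxidative phosphorylation, 22 rose and 1 fell (median 0.36), and 12 rose and 11 fell when length was adjusted (median 0.06). The count of higher genes ran from 10 to 38 when 1 library was left out: 38 without d0_WT_31, 10 without d0_WT_41, 14 without d0_WT_43 and 11 without d0_WT_46. Uqcrq, a subunit of complex III, showed how one animal stood apart: it had 90.6, 67.1, 81.8 and 72.0 CPM at day 0, 134.4 to 177.8 CPM in 6 day 3 libraries and 427.5 CPM in d3_WT_381 (log2 fold change 1.35 ± 0.29 SE, edgeR adjusted p = 0.0017). The mitochondrial ribosome had 37 of 76 genes higher and none lower (length-adjusted, 20 and 4; 22 higher without d0_WT_46), and the TCA cycle 16 of 27 higher and none lower (length-adjusted, 8 and 1). Mdh2, mitochondrial malate dehydrogenase, rose from 262, 217, 236 and 219 CPM to 378 to 572 (median 438) CPM (log2 fold change 0.92 ± 0.12 SE, edgeR adjusted p = 4.2e-05). Pdk2, the kinase that restrains pyruvate dehydrogenase, rose from 31.6, 22.9, 24.8 and 28.4 CPM to 53.1 to 77.1 (median 69.3) CPM (log2 fold change 1.34 ± 0.12 SE, edgeR adjusted p = 1.1e-06).

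Of 38 genes of fatty acid oxidation 19 rose and 1 fell, and 16 rose and 3 fell after length adjustment. Ucp2, a mitochondrial carrier, had tight groups, 242, 269, 329 and 281 CPM at day 0 and 588 to 672 (median 642) CPM at day 3 (log2 fold change 1.17 ± 0.11 SE, edgeR adjusted p = 1.2e-06). Acadl, a dehydrogenase of long acyl chains, rose from 112, 105, 105 and 105 CPM to 206 to 325 (median 228) CPM (log2 fold change 1.22 ± 0.13 SE, edgeR adjusted p = 4.3e-06). Ppard, a nuclear receptor that fatty acids activate, rose from 97.6, 116, 130.3 and 123 CPM to 196 to 318 (median 247) CPM (log2 fold change 1.14 ± 0.14 SE, edgeR adjusted p = 1.5e-05).

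Hk2, the hexokinase whose gene is floxed in these animals and which catalyses the first step of glycolysis, was lower at day 3 in these wild-type animals. It stood at 318, 504, 377 and 576 CPM at day 0 and 121 to 278 (median 225) CPM at day 3, without overlap (log2 fold change -1.02 ± 0.22 SE, edgeR adjusted p = 0.0018; length-adjusted -0.97). From day 3 to day 7, where 19.5% of 15443 genes were called (10.1% higher and 9.40% lower), it rose by 0.91 on the log2 scale (edgeR adjusted p = 0.0087). That comparison shares its day 3 libraries with the one described here. The lactate exporter gene Slc16a3 fell with it, from 7.05, 11.2, 5.85 and 10.6 CPM to 2.17 to 6.74 (median 3.32) CPM (log2 fold change -1.32 ± 0.29 SE, edgeR adjusted p = 0.0023). Of the 31 glycolysis genes, 8 rose and 5 fell (length-adjusted, 3 and 5), 25.8% and 16.1% of the list. The higher count was 4 without d0_WT_41 or d0_WT_43 and 5 without d0_WT_46.

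Antioxidant and detoxification genes rose more often than they fell. Of 35 NRF2 and antioxidant genes, 20 rose and 2 fell (length-adjusted, 15 and 1), 57.1% of the list against 21% of all genes. Fth1, the ferritin heavy chain that stores iron, rose from 636, 595, 500.5 and 627 CPM to 1514 to 2352 (median 1600.4) CPM (log2 fold change 1.58 ± 0.15 SE, edgeR adjusted p = 2.3e-06), a 2.98-fold change without overlap. Pgd, an NADPH-producing enzyme of the pentose phosphate pathway, rose from 168, 190.0, 188 and 178 CPM to 347.6 to 498 (median 395) CPM (log2 fold change 1.15 ± 0.11 SE, edgeR adjusted p = 2.5e-06). The oxidative stress gene Osgin1 rose from 22.6, 19.7, 19.4 and 23.6 CPM to 36.9 to 72.8 (median 51.9) CPM (log2 fold change 1.28 ± 0.16 SE, edgeR adjusted p = 2.9e-05). Of 54 xenobiotic genes 23 rose and 8 fell (length-adjusted, 15 and 10); the lower count was 3 to 5 when d0_WT_31, d0_WT_41 or d0_WT_46 or any day 3 library other than d3_WT_381, was left out. Among them Gstm1, a glutathione transferase, rose from 119, 85.6, 117 and 91.2 CPM to 178 to 268 (median 239) CPM (log2 fold change 1.16 ± 0.14 SE, edgeR adjusted p = 1.5e-05), with 18.9% of its 50-base stretches shared with other Gstm genes.

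The metallothionein genes, whose proteins bind zinc and copper, rose. Mt2 went from 16.4, 9.50, 6.61 and 9.69 CPM to 42.4 to 151 (median 60.2) CPM, highest in d3_WT_486 (log2 fold change 2.75 ± 0.37 SE, edgeR adjusted p = 4.1e-05), and its neighbour Mt1 from 88.0, 52.4, 43.6 and 56.6 CPM to 95.9 to 202 (median 113) CPM (log2 fold change 1.19 ± 0.24 SE, edgeR adjusted p = 0.0014). Of the 50-base stretches of Mt2, 45.9% are also in transcripts of Gm45774. The core letters TGCACNC or TGCGCNC of the metal response element occur in the 250 bases before the start of 23.8% of all 27025 genes with a RefSeq promoter, and 3 times or more in 1.46%. Among the 11266 genes tested with a promoter these shares were 33.0% and 2.46%. Mt2 has 3 such matches, in capitals below, in the plus-strand window chr8:94172368-94172617 (GRCm38.p6) that ends at its start. It is shown because Mt2 was among the 12 protein-coding genes with the largest rise.
Mt2, metal response core: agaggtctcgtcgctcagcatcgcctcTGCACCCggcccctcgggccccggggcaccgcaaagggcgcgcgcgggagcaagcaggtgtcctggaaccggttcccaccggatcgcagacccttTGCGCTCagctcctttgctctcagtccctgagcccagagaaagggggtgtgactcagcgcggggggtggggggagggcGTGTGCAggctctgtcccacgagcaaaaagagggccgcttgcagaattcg

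Genes of cell death moved in both directions. Of 57 tested, 18 rose and 9 fell (length-adjusted, 14 and 7), 31.6% and 15.8% of the list. The 3 gasdermin C genes named here, which encode pore-forming proteins of the gut epithelium, rose together: Gsdmc2 from 222, 192, 204 and 216 CPM to 442 to 1019 (median 495) CPM (log2 fold change 1.48 ± 0.21 SE, edgeR adjusted p = 8e-05), Gsdmc3 (log2 fold change 1.10 ± 0.16 SE, edgeR adjusted p = 9.3e-05) and Gsdmc4 (log2 fold change 1.04 ± 0.16 SE, edgeR adjusted p = 0.00013). They share 39.0 to 51.3% of their 50-base stretches with one another or other copies, so that reads could be divided among them. Ppif, cyclophilin D of the mitochondrial permeability pore, rose from 84.6, 72.4, 72.3 and 68.4 CPM to 152 to 195 (median 160.1) CPM (log2 fold change 1.17 ± 0.10 SE, edgeR adjusted p = 9.4e-07) and the executioner caspase gene Casp6 from 19.5, 18.3, 18.3 and 16.3 CPM to 27.1 to 40.8 (median 32.4) CPM (log2 fold change 0.86 ± 0.11 SE, edgeR adjusted p = 4.3e-05). Apaf1, the scaffold of the apoptosome, fell from 79.3, 90.6, 76.4 and 96.7 CPM to 41.9 to 55.8 (median 47.6) CPM (log2 fold change -0.81 ± 0.10 SE, edgeR adjusted p = 1.4e-05). The inflammasome sensor gene Nlrp1b fell from 34.7, 52.4, 40.8 and 30.2 CPM to 13.4 to 24.6 (median 16.8) CPM (log2 fold change -1.14 ± 0.17 SE, edgeR adjusted p = 0.00012).

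Clock genes differed between the days, and the hour at which animals were killed is not given in the sources used here. Nr1d1, the repressor REV-ERB alpha, rose from 32.3, 36.6, 43.1 and 50.4 CPM to 71.8 to 321 (median 221) CPM (log2 fold change 2.25 ± 0.37 SE, edgeR adjusted p = 0.00023), while its target Arntl, the core activator, fell from 115, 108, 93.1 and 106 CPM to 44.4 to 83.2 (median 63.5) CPM (log2 fold change -0.78 ± 0.17 SE, edgeR adjusted p = 0.0022). Dbp, an output gene of the clock, and Cry1, a repressor of late phase, went opposite ways with overlap: Dbp from 2.20, 1.98, 4.06 and 3.58 CPM to 2.33 to 16.05 (median 7.76) CPM (log2 fold change 1.68 ± 0.52 SE, edgeR adjusted p = 0.018) and Cry1 from 47.4, 52.99, 37.0 and 60.03 CPM to 7.51 to 41.7 (median 16.1) CPM (log2 fold change -1.31 ± 0.39 SE, edgeR adjusted p = 0.015). Dbp lost the call without d0_WT_41 (edgeR adjusted p = 0.06). d3_WT_346 and d3_WT_381 had the lowest Nr1d1 and Dbp and the highest Cry1 of the day 3 group. Of 17 clock genes 6 rose and 5 fell in both fits. Hour of death and treatment cannot be told apart from these values.

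By the rule of largest change among protein-coding genes with at least 16 CPM and no overlap, the 12 leading genes that rose were S100a11, Osr2, Phlda1, Hoxb8, Anp32b, Hmgn5, Mt2, S100g, Egr1, Nr1d1, Pcbp2 and Zfp703. S100a11, a calcium-binding protein, led with 6.97, 5.23, 9.91 and 6.92 CPM at day 0 and 57.3 to 155 (median 91.8) CPM at day 3 (log2 fold change 3.72 ± 0.29 SE, edgeR adjusted p = 4e-07). Anp32b, a histone chaperone, and Hmgn5, a nucleosome-binding protein, varied little within each group: Anp32b had 16.4, 18.4, 23.6 and 15.9 CPM and 129 to 156 (median 140.1) CPM (log2 fold change 2.94 ± 0.12 SE, edgeR adjusted p = 8.2e-09), and Hmgn5 7.96, 7.58, 10.1 and 9.08 CPM and 62.6 to 70.5 (median 63.9) CPM (log2 fold change 2.92 ± 0.10 SE, edgeR adjusted p = 2.8e-09). Copies and overlapping genes share sequence with several of them: 41.1% of the 50-base stretches of S100a11, 12.1% of Anp32b, 18.6% of Hmgn5 and 31.5% of Pcbp2 are also in transcripts of other genes, so their values are uncertain where reads were divided or discarded.

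The 12 leading genes that fell were Lrrtm2, Lars2, Dnah5, Itgb2l, Slc34a2, Dpysl2, Syne3, Igsf9b, March3, Dnah8, Evl and Myo9a. Lrrtm2, a synaptic adhesion gene, stood at 7.35, 23.6, 20.3 and 23.6 CPM at day 0 and at 0 to 0.0785 CPM at day 3, and it lies within the gene Ctnna1. Lars2, mitochondrial leucyl-tRNA synthetase, went from 2113, 2387, 1588 and 4492 CPM to 92.01 to 141 (median 108) CPM (log2 fold change -4.57 ± 0.24 SE, edgeR adjusted p = 4.4e-08) and did not change from day 3 to day 7 by the test (edgeR adjusted p = 0.98). Dnah5 and Dnah8 encode dynein heavy chains of motile cilia; Dnah5 went from 21.3, 16.1, 18.7 and 14.97 CPM to 0.290 to 3.52 (median 1.04) CPM (log2 fold change -3.70 ± 0.49 SE, edgeR adjusted p = 3.9e-05). Slc34a2, a sodium-dependent phosphate transporter, fell from 80.7, 129.97, 55.7 and 65.3 CPM to 3.50 to 12.4 (median 9.37) CPM (log2 fold change -3.25 ± 0.31 SE, edgeR adjusted p = 1.8e-06), and Dpysl2, a microtubule regulator, from 114, 109, 93.7 and 82.6 CPM to 9.34 to 16.5 (median 14.1) CPM (log2 fold change -2.89 ± 0.15 SE, edgeR adjusted p = 4.4e-08). The part of the library series in these 24 largest changes was not tested.

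The KO animals offer other mice of the same days in the same library series. There, 7357 of 15791 genes (46.6%) passed the test, 22.7% higher and 23.9% lower at day 3, and 41.8% of 13505 with length adjustment (21.2% and 20.6%). Of the genes tested in both genotypes, 2355 rose in both, 67.5% of the 3490 that rose in WT and 65.7% of the 3587 that rose in KO, and 2775 fell in both, 77.9% and 74.9%. Some lists gave other counts in KO than in WT. Of 54 xenobiotic genes 7 rose and 15 fell there, of 74 interferon-stimulated genes 25 and 4, and of 12 MHC class II genes 7 and 1. Others went as in WT: 31 of 36 heat shock and immediate-early genes rose and 1 fell, and 35 of 73 proliferation genes fell and 0 rose. Differences of lists between the genotypes were not tested. The interaction of day and genotype called 0 of 18045 genes (edgeR's quasi-likelihood test), so that no single gene was shown to respond differently. With DESeq2 size factors the count was also 0. In the main interaction fit 2460 genes had an unadjusted p under 0.05, more than this threshold gives by chance. One library labelled KO at day 3, d3_KO_345, held Hk2 at 531.6 CPM against 84.2 to 157.1 CPM in the other 7, which goes against its label. Without it the interaction count was again 0. Leaving out 1 library gave 0 to 2 genes, 1 without d3_KO_349 and 2 without d3_WT_487. The KO calls and shared genes above include d3_KO_345. They also include d0_KO_32, in which 61.7% of counts were mitochondrial and 6.35 M counts fell in kept genes.

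Several of the genes that rose in WT had higher values in untreated KO animals, though the genotypes were not compared by a test at day 0. On the scale of all 38 libraries, Mt2 stood at 6.28 to 16.2 CPM in WT and 22.3 to 34.4 CPM in KO at day 0, and at 41.001 to 144.1 and 25.4 to 98.5 CPM at day 3. Its log2 fold change was 2.75 in WT and 0.60 in KO, and the interaction had an edgeR adjusted p of 0.17. Ces1g, a lipid-cleaving carboxylesterase, had 31.9 to 43.8 CPM in WT and 85.7 to 140.6 CPM in KO at day 0, and changed by 1.89 and 0.30 (interaction adjusted p = 0.16, edgeR). S100g, the calcium-binding protein calbindin D9k, overlapped at day 0, with 2.51 to 6.77 CPM in WT and 4.65 to 32.1 CPM in KO. It changed by 2.61 in WT and -0.37 in KO (interaction adjusted p = 0.17, edgeR). Mt1 had no overlap between the genotypes at day 0, with 41.4 to 86.8 CPM in WT and 140.7 to 190.1 CPM in KO, and changed by 1.19 and -0.16 (interaction adjusted p = 0.20, edgeR). None of these 4 differences passed the test.

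**Figure D5:**
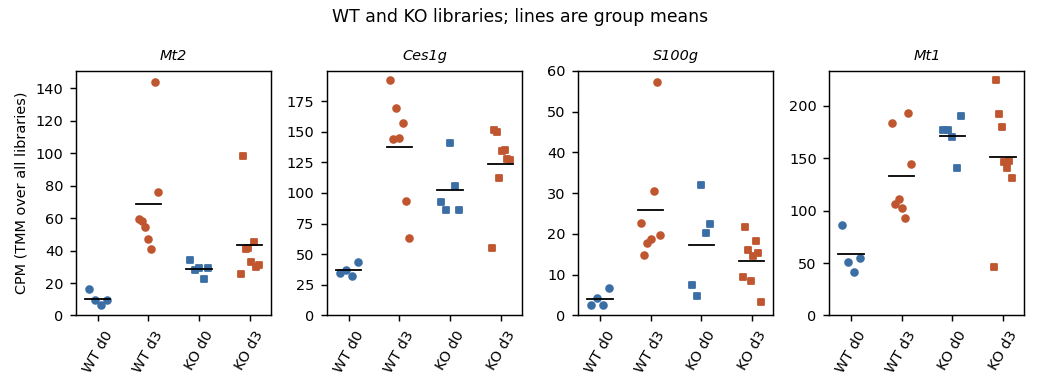
CPM (y axis, TMM over all 38 libraries) of Mt2, Ces1g, S100g and Mt1 in WT (circles) and KO (squares) libraries at day 0 and day 3, with group means as lines. The WT day 0 libraries lie below all other groups for Mt2 and Ces1g, and the KO groups overlap between days for all 4 genes.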

How the data were processed

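RNA of isolated intestinal epithelial cells was sequenced from 38 mice in 6 groups of genotype and day. The members and gene lists were chosen with earlier results of these data known. The authors deposited raw counts per gene, in 2 lane files per library, made with featureCounts 1.6.2 without regard to strand per the file headers. Reads of a gene and its antisense partner therefore cannot be told apart. The submitters' processing notes name Trim Galore, STAR, featureCounts 1.5.2 and GRCm38. Libraries came from a stranded mRNA kit per the labels.

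The lanes were summed, and 71 histone, 37 mitochondrial and 6090 small RNA genes were dropped, leaving 39880. The 11 wild-type libraries were fitted with edgeR 4.0.16 (R 4.3.3; filterByExpr, TMM, quasi-likelihood test, Benjamini-Hochberg over all genes tested, threshold 0.05). SE is the fold change divided by the root of F. CPM values are TMM-scaled. Replicates are separately numbered animals, and p-values measure only the spread between these samples. Genes were named by 3 rules: up to 12 per direction with the largest change among called protein-coding genes with at least 16 CPM in the higher group and no overlap, members of 48 lists, and Hk2. DESeq2 1.42.0, other filters and scalings, lane 1 alone and leaving out each library were alternatives. The length-adjusted fit and the fit without d0_WT_31 and d3_WT_381 were added after seeing the data. The scripts were tested on simulated data. Depth sets the precision: 3 counts equal 0.0651 to 0.283 CPM, and this limit covers counting error only. Sequence shared between genes was counted over 50-base stretches of annotated transcripts.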

Additional observations from a re-analysis of the deposited data

Results flagged for a closer look

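Of 132 groups of values examined in the wild-type libraries, 16 (12.1%) had a highest or lowest library whose gap to the next was large for the range of the group (Dixon's criterion at the 95% level). Chance gives about 1 in 20. List values below are mean log2(CPM + 1) over the list.

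At day 3 d3_WT_381 stood apart most often. It had the highest mitochondrial share (41.7%) and the highest values for MHC class I genes (5.85), oxidative phosphorylation (8.31), the TCA cycle (7.57), the mitochondrial ribosome (5.81), xenobiotic genes (5.92) and cell death genes (6.30), and the lowest for glycosyltransferases (5.16). d3_WT_346 was highest for the unfolded protein response (6.38) and d3_WT_486 for B cell and plasma cell markers (1.32). d3_WT_348 was lowest for Hoxd13, at 1.38 as log2(CPM + 1).

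Among the day 0 libraries, d0_WT_31 had the highest histone share (0.329%) and the highest value for NRF2 and antioxidant genes (6.60). d0_WT_43 was lowest for colonic epithelial genes (8.10) and glycosyltransferases (5.37). d0_WT_46 was highest for Hoxd11, at 0.11 as log2(CPM + 1), where the other 3 libraries had no count.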

How the results depend on the processing

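The count of called genes was 7668, and 6004 to 8701 when 1 library was left out. DESeq2's Wald test called 9554 of 22271 genes and the fit with no filter 10020 of 27484. With protein-coding genes only, 2350 were higher. After length adjustment 4998 were called, 2570 of them lower. With a log2 fold change of at least 1 the count was 3169, 748 higher and 2421 lower, so that the share of higher genes moved from 46.1% to 23.6%. The interaction called 0 to 2 genes when 1 library was left out. The difference in mitochondrial share was 2.83 percentage points, and -1.31 (without d3_WT_381) to 4.61 when 1 library was left out.

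None of the 169 called named genes changed sign, and 95 of their 3706 values under an alternative were no longer called. Of the list medians, 967 of 1056 values moved by less than their spread. Signs turned in 4 genes that were not called; the cause was not tested. Hoxb13 gave 0.000736 with no filter, 0.00912, 0.00383 and 0.0886 without d3_WT_346, d3_WT_348 or d3_WT_381, 0.0272 without d0_WT_43, 0.0705 without d0_WT_31 and d3_WT_381, -0.21 without d3_WT_487, and -0.30 after length adjustment as the lowest value. Lgr5 gave 0.0114 with no filter, 0.0440 and 0.109 without d3_WT_346 or d3_WT_381, 0.0267 without d0_WT_31, 0.25 after length adjustment, 0.14 without d0_WT_31 and d3_WT_381, and -0.19 as the lowest. Without d0_WT_41, Cd74 gave 0.97 and H2-Aa 0.88, against lowest values of -1.79 and -1.79 without d0_WT_31 and d3_WT_381, where both were called lower (edgeR adjusted p = 0.035 and 0.029). Without d3_WT_381 alone Cd74 gave -1.49 and was not called, and H2-Aa gave -1.54 and was called lower (edgeR adjusted p = 0.07 and 0.044). No paired analysis was possible because the groups compared share no replicate number. The shallowest library was at day 0, and a gene with 3 counts or fewer in every library of a day has no usable fold.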

Other observations

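Genes of junctions, stress and lipid synthesis moved in both directions. Over all genes 21% rose and 24.6% fell, and over protein-coding genes 24.2% rose and 17.7% fell. Of 31 junction genes 4 rose and 6 fell (12.9% and 19.4%), and of 46 genes of the unfolded protein response 12 rose and 7 fell (26.1% and 15.2%). Of 26 hypoxia genes 8 rose and 2 fell (30.8% and 7.69%), and of 36 genes of sterol and lipid synthesis 6 rose and 6 fell (16.7% each). After length adjustment these counts were 3 and 6, 8 and 8, 6 and 4, and 6 and 9. Without d3_WT_346 the lower count of hypoxia genes was 4, and without d0_WT_31 that of sterol and lipid genes was 11. Of 27 genes of NF-kappaB feedback 7 rose and 5 fell (length-adjusted, 5 and 3), 25.9% and 18.5% of the list in the whole fit. The lower count was 1 to 3 without d3_WT_486 or d3_WT_487 or d0_WT_31, d0_WT_41 or d0_WT_46.

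From day 3 to day 7, within 1 library series, 3018 of 15443 genes (19.5%) were called. Neutrophil markers (12 of 12 tested), macrophage and dendritic cell markers (14 of 14) and MHC class II genes (12 of 17) rose in that interval, as did 9 of 14 genes of redox defence and 15 of 29 antimicrobial genes. The position gene Hoxb13, which was not called between day 0 and day 3, fell by 1.83 on the log2 scale from day 3 to day 7 (edgeR adjusted p = 0.007).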
